A study of Drosophila melanogaster with 16 samples.

Results

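Of 16 RNA-seq libraries of whole Drosophila melanogaster larvae, 4 carried high transcript levels of the Tweedle (Twdl) cuticle protein genes. There was 1 such library in each of the 4 groups of the study. The libraries were chosen on measured values: for each library the mean log2(CPM + 0.5) of the 15 Twdl genes was taken as its Twdl score, the mean score of its group was subtracted, and libraries lying more than 1 above their group were kept. They were mutant high-sugar replicate 3, mutant low-sugar replicate 4, control high-sugar replicate 4 and control low-sugar replicate 1, called the high libraries here and set against the other 12.

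The groups crossed genotype with diet, 4 libraries each: larvae labelled cwo B9 on a high sugar diet (HSD), the same genotype on a low sugar diet (LSD), and control larvae on HSD and on LSD. cwo encodes Clockwork orange, a transcriptional repressor of the circadian clock. All larvae fed from the first instar on LSD (10% yeast) at 25 °C for 24 h, and in the early second instar went for 8 h to LSD or to HSD (10% yeast and 15% sucrose), both coloured with 2% blue dye. Larvae seen to feed were then frozen. The labels do not say how many larvae made a library, whether the 4 libraries of a group came from separate collections, or what strain the controls were, and p-values here reflect only how far these libraries spread, part of which may be technical. The table reports normalised values called CPM.

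The genotype labels were checked on cwo itself. In the 8 mutant libraries cwo lay between 138.7 and 291.0 CPM, against 54.9 to 72.8 CPM in the 8 control libraries. The transcript was thus higher in every library labelled mutant, and the labels do not say what the allele does to it. Between the high libraries and the rest, cwo differed by 0.06 ± 0.07 log2 units (SE; limma, adjusted p = 0.96).

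Larvae replace their cuticle at each moult under control of the steroid 20-hydroxyecdysone. A pulse of the hormone, sensed by the ecdysone receptor, switches on early transcription factors such as Eip74EF and Eip75B, then Hr46 and Hr4, and as the hormone is broken down again the nuclear receptor ftz-f1. Epidermal cells then secrete the new cuticle, built of chitin and of chitin-binding proteins of the Cpr, Lcp, Ccp84 and Tweedle families, in a set order.

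**Figure D1:**
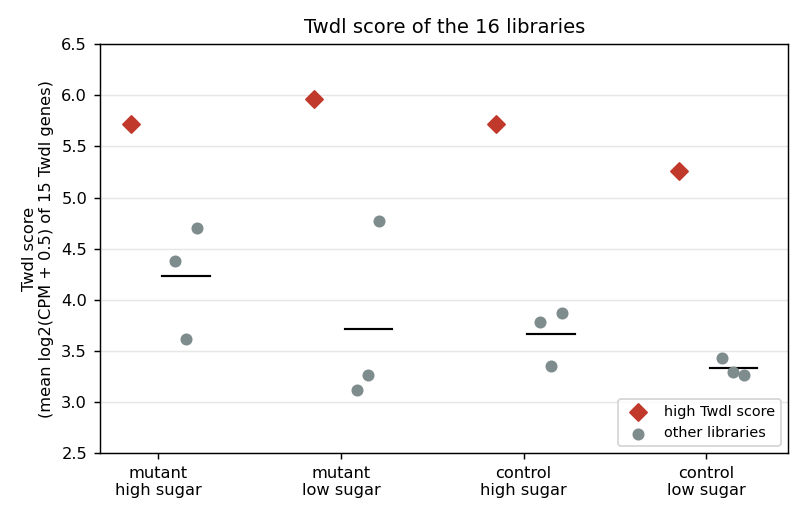
Twdl score of each library by group (vertical axis, mean log2(CPM + 0.5) of 15 Twdl genes). Red diamonds are the high libraries, grey points the other 3 libraries of the group, and black lines their mean; the high libraries sit between 5.26 and 5.96 and the others between 3.12 and 4.78.

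The Twdl score was 5.72 in mutant HSD replicate 3, 5.96 in mutant LSD replicate 4, 5.72 in control HSD replicate 4 and 5.26 in control LSD replicate 1. In the other 12 libraries it lay between 3.12 and 4.78. The library nearest above the limit was mutant HSD replicate 3, at 1.11 above its group, and the nearest below it was mutant LSD replicate 3, at 0.49. Mutant LSD replicates 1 and 2 lay 1.16 and 1.01 below their group and were kept with the rest. Scores, and the Twdl values that make them, are given as a description with no test.

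The Twdl genes did not move as 1 block. In 9 of the 15 the high library was the highest of its group in all 4 groups. TwdlB stood at 164.8 CPM in mutant HSD replicate 3, 25.3 in mutant LSD replicate 4, 236.5 in control HSD replicate 4 and 16.1 in control LSD replicate 1, against 0.79 to 21.2 CPM in the rest. TwdlM stood at 338.8, 167.2, 285.2 and 122.5 CPM in the same 4 libraries. TwdlB and its neighbour TwdlL, at 149.4, 57.2, 193.1 and 21.2 CPM, were thus highest in the HSD pair of high libraries. TwdlD, in which mutations make larvae short and fat, had the opposite order, with 6.51 CPM in mutant HSD replicate 3, 7.43 in mutant LSD replicate 4, 4.41 in control HSD replicate 4 and 30.6 in control LSD replicate 1. TwdlF reached 327.3 CPM in mutant LSD replicate 4, and lay between 0.36 and 5.53 CPM in the other 15 libraries. TwdlO, TwdlX and Twdlalpha, which were abundant in every library, had mean differences of 0.14, 0.12 and -0.08 log2 units between the high library and the rest of its group.

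The high libraries also differed from the rest in genes that did not choose them. With the Twdl genes removed and 1 mean fitted per group, 42 of 9822 genes were higher in the high libraries (limma, adjusted p under 0.05), 0.428% of the genes tested. No gene was lower at that threshold, while 153 genes were lower and 433 higher at an unadjusted p under 0.05. The libraries were picked by a measured value, so these p-values mark genes that go with the Twdl score within groups, and they test no labelled condition. The 42 differences ran from 0.39 to 4.06 log2 units with a median of 1.68, against a median of -0.01 over all genes, and 30 of them were 1 or more. In 35 of the 42 the high library was the highest of all 4 in every group, and in the other 7 it was so in 3 groups. Over all genes, the high library was the highest of every group in 0.977% and the lowest of every group in 0.244%. All 4 high libraries lay above all 12 others in 18 of the 42 genes, against 0.224% of the genes tested. Of the 42, Sb, Ccp84Ac, CG17127, CG12164 and CG32214 reached 1 CPM in fewer than 4 of the other libraries. These 5, of 68 such genes among all tested, were kept for testing only through the high libraries and so had to be higher there. Without mutant LSD replicate 3, which has the highest score of the rest, 91 genes were higher. The counts also depended on the fit: a robust fit gave 213 higher and 76 lower genes, and the score as a continuous covariate gave 189 positive and 11 negative slopes. A block on the replicate number gave 17 higher and 1 lower.

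Among the genes of ecdysone signalling, the first step of a moult, 2 rose, Eip74EF and Cyp18a1, where 0.428% of all genes tested did. Eip74EF, an early-response transcription factor of the ETS family, stood at 14.9 CPM in mutant HSD replicate 3, 6.64 in mutant LSD replicate 4, 13.2 in control HSD replicate 4 and 4.94 in control LSD replicate 1, against 1.26 to 3.48 CPM (median 2.63) in the rest. The 4 high libraries did not overlap the other 12, and the HSD pair was the higher of the high libraries. Eip74EF differed by 1.69 ± 0.23 log2 units (SE, limma, adjusted p = 0.0024). It was the 1 gene of 21 tested receptors and response genes of ecdysone to pass, and the median difference of these 21 was 0.11.

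The other factors of the cascade did not pass. EcR, which encodes the ecdysone receptor, differed by 0.11 ± 0.07 log2 units, Eip75B by 0.22 ± 0.09 and Hr46 by 0.53 ± 0.22. Hr4 stood at 3.02 CPM in mutant HSD replicate 3, 9.93 in mutant LSD replicate 4, 3.36 in control HSD replicate 4 and 16.7 in control LSD replicate 1. It was the highest of its group in each, and its difference was 0.83 ± 0.21 (limma, adjusted p = 0.14). ftz-f1 had 18.1, 28.8, 15.6 and 11.7 CPM in the same libraries, against 6.99 to 16.8 CPM in the rest, and its difference was 0.70 ± 0.18 (limma, adjusted p = 0.15). Control HSD replicate 4 was not the highest of its group for ftz-f1. In a robust fit, chosen as an alternative, Eip75B, Hr4 and ftz-f1 passed, with differences of 0.23, 0.62 and 0.49 log2 units. That fit called far more genes than the main fit, 213 higher and 76 lower. For the change with genotype it called 1582 higher and 1517 lower, where the main fit called 0. Genes that pass only in the robust fit, here and below, are thus weakly held.

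Among 10 tested genes of ecdysone synthesis and breakdown, Cyp18a1 rose, where 0.428% of all genes did. It encodes the enzyme that inactivates the hormone. Cyp18a1 stood at 13.1 CPM in mutant HSD replicate 3, 12.6 in mutant LSD replicate 4, 21.1 in control HSD replicate 4 and 7.16 in control LSD replicate 1. Within every group the high library was the highest, although across groups the values overlapped those of the rest (2.59 to 17.1 CPM). The difference was 0.81 ± 0.13 log2 units (limma, adjusted p = 0.0068), and without mutant LSD replicate 4 it was 0.68 (adjusted p = 0.052). shd, whose enzyme makes the active hormone, differed by -0.19 ± 0.06 (limma, adjusted p = 0.40). It passed as lower in the robust fit, by -0.17 (limma, adjusted p = 0.0069), and its slope on the continuous score was -0.11 (adjusted p = 0.0169). ETH, the hormone that triggers ecdysis, differed by 0.13 ± 0.07, and none of 9 tested ecdysis hormones and receptors passed.

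**Figure D2:**
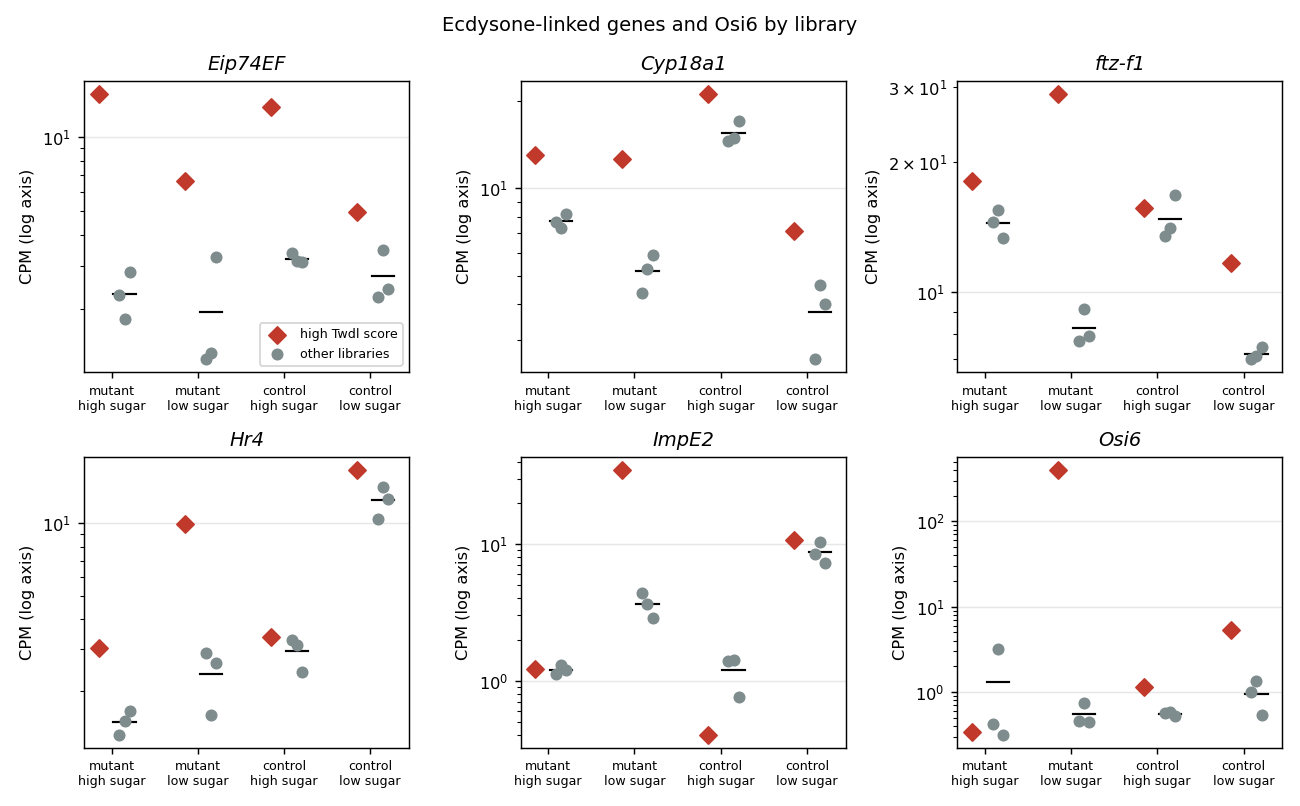
Values of 6 genes by library and group (vertical axes, CPM on a log scale); red diamonds are the high libraries, grey points the other 3 of the group and black lines their mean. Eip74EF and Cyp18a1 are highest in the high library of every group, while ImpE2 and Osi6 peak at 34.7 and 398.9 CPM in mutant LSD replicate 4.

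Of the structural genes of the cuticle, 7 rose: 4 of 23 tested Lcp, Ccp84 and other named cuticle proteins, and 3 of 42 tested Cpr genes, where 0.428% of all genes did. The 4 include Ccp84Ac, which was kept for testing only through the high libraries and so had to be higher there. Ccp84Ae, Ccp84Ac and Ccp84Af are neighbours in a cuticle gene cluster on chromosome arm 3R. Ccp84Ae stood at 38.7 CPM in mutant HSD replicate 3, 11.4 in mutant LSD replicate 4, 33.2 in control HSD replicate 4 and 13.9 in control LSD replicate 1, against 0.022 to 5.87 CPM (median 0.34) in the rest. No other library reached any of the 4. Its difference, 4.06 ± 0.46 log2 units (SE, limma, adjusted p = 0.00068), was the largest of the 42. Ccp84Ac had 5.40, 17.2, 4.0 and 8.70 CPM in the high libraries, against 0.022 to 2.26 in the rest, and differed by 3.12 ± 0.34. Ccp84Af had 20.4, 14.2, 10.3 and 9.81 CPM, against 0.11 to 3.61, and differed by 3.08 ± 0.31. Thus the 3 called genes of the cluster shared the separation but not the order of the libraries, since Ccp84Ac was highest in mutant LSD replicate 4 and the other pair in mutant HSD replicate 3.

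The called Cpr genes, which encode proteins with a chitin-binding motif, were Cpr65Ea, Cpr30F and Cpr51A. Cpr65Ea stood at 11.02 CPM in mutant HSD replicate 3, 56.6 in mutant LSD replicate 4, 3.79 in control HSD replicate 4 and 82.7 in control LSD replicate 1, against 0.48 to 13.7 CPM in the rest. The LSD pair was far above the HSD pair. Its difference was 2.62 ± 0.47 log2 units (limma, adjusted p = 0.021), and without mutant LSD replicate 4 the adjusted p was 0.094. Cpr30F had 4.31, 9.07, 8.41 and 4.56 CPM, against 0.22 to 3.26, and differed by 2.24 ± 0.36; it missed the threshold without mutant LSD replicate 4 (limma, adjusted p = 0.061) and without control HSD replicate 4 (0.060). Cpr51A had 7.67, 16.2, 10.3 and 17.5 CPM, against 5.28 to 7.73, and differed by 0.94 ± 0.13. Lcp65Ad differed by 1.22 ± 0.22 (limma, adjusted p = 0.018), with adjusted p = 0.117 without control LSD replicate 1, 0.093 without mutant LSD replicate 4 and 0.053 without mutant HSD replicate 3.

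Most cuticle genes did not pass. The median difference was 0.15 log2 units over the 42 Cpr genes and 0.14 over the 23 of the other list, and the larval cuticle proteins Lcp1 and Lcp2 differed by 0.14 ± 0.12 and 0.02 ± 0.12. Genes that build or digest chitin were near the rest: none of 20 tested genes of chitin synthesis and assembly and none of 17 chitinases and moulting fluid enzymes passed, with medians of 0.08 and 0.06. The chitinase genes Cht5 and Cht7 differed by 0.34 ± 0.18 and 0.30 ± 0.11. Of 16 genes of cuticle tanning and pigment none passed. ple, which encodes tyrosine hydroxylase, differed by 0.95 ± 0.32 and y, needed for black pigment, by 0.75 ± 0.22; both passed without mutant LSD replicate 3 (limma, adjusted p = 0.041 and 0.011) and on the continuous score, and y also in the robust fit. None of 10 tested genes of a list of apical matrix proteins, most with zona pellucida domains, passed either.

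The Osiris genes encode insect-specific membrane proteins found in cells that secrete cuticle, and most lie in a cluster on arm 3R. Of 6 tested, Osi2 rose, where 0.428% of all genes did. Osi2 stood at 16.1 CPM in mutant HSD replicate 3, 31.2 in mutant LSD replicate 4, 15.5 in control HSD replicate 4 and 44.8 in control LSD replicate 1, against 0.71 to 8.57 CPM (median 1.58) in the rest. No other library reached the lowest of these, and the difference was 3.38 ± 0.40 log2 units (SE, limma, adjusted p = 0.00068). The median of the 6 Osiris genes was 2.36 log2 units, the highest of the 26 lists described, but 5 of the 6 did not pass over all 16 libraries. In the robust fit Osi6, Osi14 and Osi15 passed too, at 1.36, 1.13 and 2.11. Osi6 and Osi15 reached 1 CPM in fewer than 4 of the other libraries. They were kept for testing only through the high libraries and so had to be higher there. Their differences, and the median of the list, are thus a description.

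**Figure D3:**
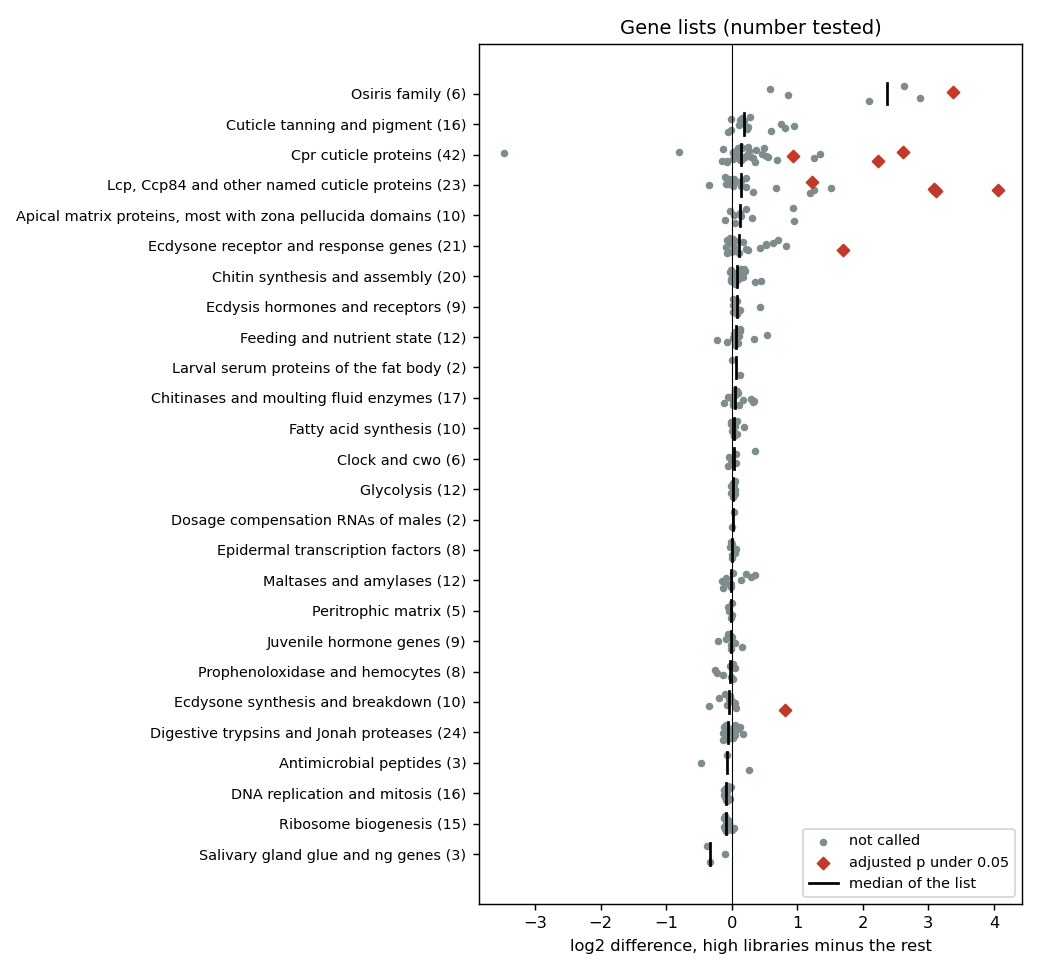
Differences between the high libraries and the rest (horizontal axis, log2) for the tested genes of 26 lists; red diamonds have an adjusted p under 0.05, grey points do not, and black lines are list medians. The Osiris list has the highest median, 2.36, and 5 lists hold all the called members. In the Osiris list, Osi6 and Osi15 were kept for testing only through the high libraries.

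The lists held 10 of the 42 genes. Symbols are those deposited, and some genes have newer names, such as CG30101, which is Vajk4 in the BDGP6 annotation. By deposited symbol, 29 of the 42 carry only a CG number, 69.1% against 43.3% of all genes tested. Among them CG12164 stood at 13.6 CPM in mutant HSD replicate 3, 13.3 in mutant LSD replicate 4, 15.0 in control HSD replicate 4 and 11.8 in control LSD replicate 1, against 0.037 to 2.96 CPM in the rest. The 4 values were close to each other, and the difference was 3.59 ± 0.34 log2 units (SE, limma). CG12164 was kept for testing only through the high libraries and so had to be higher there. Its difference is thus a description. CG31626 had 29.4, 84.6, 36.4 and 79.7 CPM in the same libraries, against 0.57 to 19.1 in the rest, and differed by 3.73 ± 0.52. CG4998 had 33.4, 74.2, 30.0 and 56.7 CPM, against 0.28 to 13.8, and differed by 3.66 ± 0.56. In both the LSD pair was the higher. CG8541 went the other way, with 59.4 and 47.6 CPM in the HSD pair, mutant first, and 26.8 and 13.1 CPM in the LSD pair. CG12971 differed by 3.18 ± 0.48 and CG17127, which like CG12164 was kept only through the high libraries, by 3.09 ± 0.42.

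A few called genes outside the lists were picked by name after their values were seen. Sb encodes the membrane protease Stubble, which remodels the apical matrix. It had 0.91, 2.39, 1.15 and 3.96 CPM in the high libraries, in the order used above, and differed by 0.98 ± 0.12. Sb too was kept for testing only through the high libraries and so had to be higher there. Nox, the NADPH oxidase, differed by 0.39 ± 0.08. The 42 genes lay on all large arms, with 17 on 3L, 9 on 3R, 7 on 2R, 5 on 2L and 4 on X. These were 0.88%, 0.37%, 0.36%, 0.30% and 0.26% of the genes tested on each arm, so the share was highest on 3L. Besides the Ccp84 genes, CG32074 with CG14143 and CG32214 with CG18294, all on 3L, and CG43386 with CG32694 on X lay near each other. Their gaps were 2665, 6857 and 12285 bp, and genes that were not called may lie between them.

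**Figure D4:**
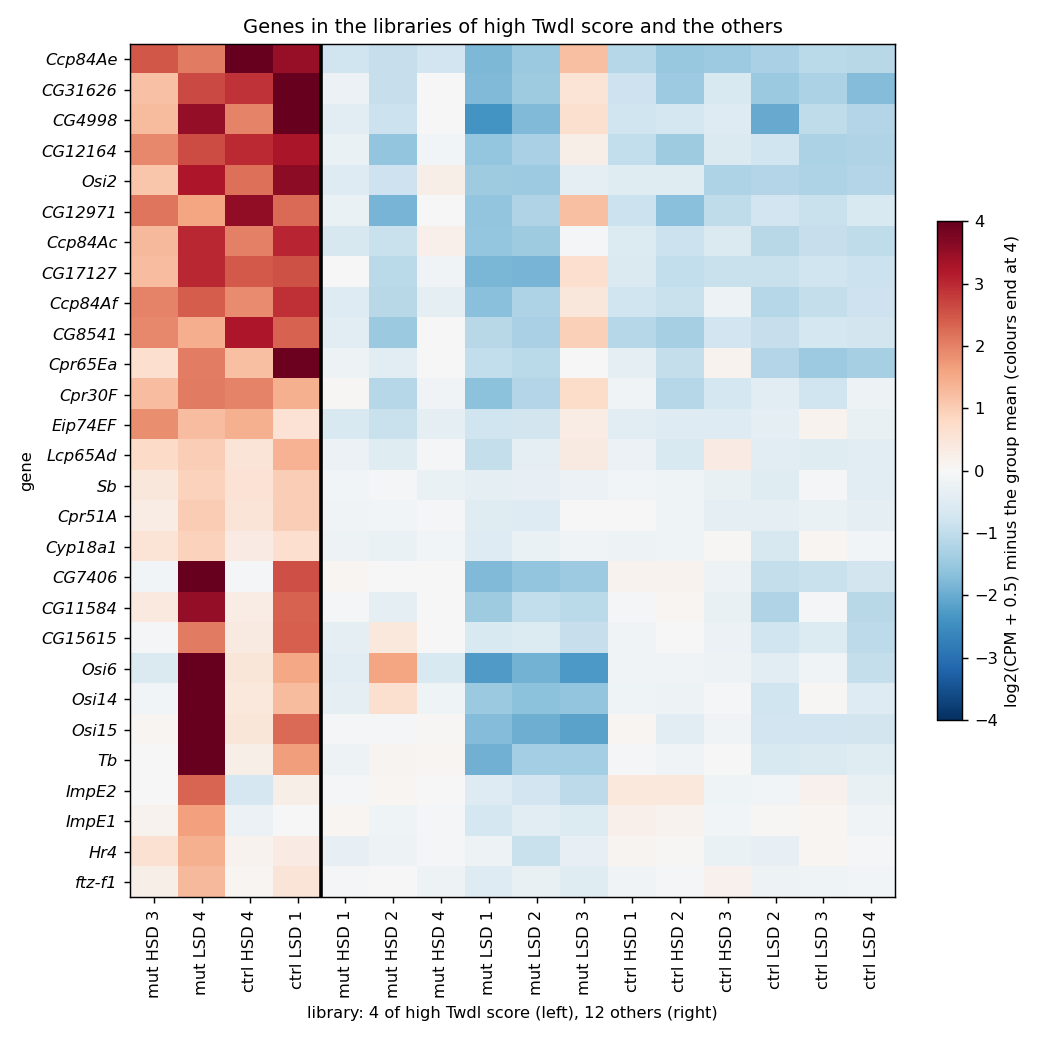
Deviation of each library from its group mean (colour, log2(CPM + 0.5), ending at 4 and -4) for 28 genes; the 4 high libraries are left of the black line and the other 12 right of it. From Ccp84Ae to Cyp18a1 all 4 high libraries are above their group, while CG7406 to ImpE1 stand out in mutant LSD replicate 4, and CG7406 to Tb also in control LSD replicate 1.

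The 4 high libraries were not alike in all respects. Genes at least 2-fold above all 3 other libraries of the group were counted where the library itself had at least 5 CPM. Their number was 25 in mutant HSD replicate 3, 86 in mutant LSD replicate 4, 65 in control HSD replicate 4 and 59 in control LSD replicate 1. These were 0.255%, 0.876%, 0.662% and 0.601% of the genes tested. In the rest it was 0 to 27, the 27 (0.275%) being mutant LSD replicate 3. Each of the rest had to exceed the high library of its group too. This holds its count down in genes that go with the score, so the counts are a description. Genes standing 2-fold below all others were counted where each of the others had at least 5 CPM. They numbered 0, 8 (0.0814%), 0 and 4 (0.0407%) in the high libraries and 0 to 15 (0.153%) in the rest. In each high library more genes stood above the group than below it, although the floors of these counts differ.

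Mutant LSD replicate 4 held transcripts that the other high libraries had little of. Osi6 reached 398.9 CPM there, with 0.34 in mutant HSD replicate 3, 1.13 in control HSD replicate 4 and 5.39 in control LSD replicate 1, against 0.32 to 3.22 CPM in the rest. Osi15 reached 147.4 CPM, with 0.20, 1.11 and 12.3 CPM in the other high libraries. Osi14 reached 97.5 CPM, with 1.29, 1.98 and 3.74 CPM in them. Tb, or Tubby, is a Tweedle protein whose symbol lacks the prefix, so it stayed in the results: it reached 107.4 CPM, with 0.77, 0.21 and 2.43 CPM in the other high libraries and 0.059 to 1.24 in the rest. Control LSD replicate 1 was second of the 16 for Osi6, Osi15, Osi14 and Tb, and above the 3 others of its group. The ecdysone-inducible genes ImpE1 and ImpE2 were high in mutant LSD replicate 4 alone, at 30.2 and 34.7 CPM, with 10.8 CPM each in control LSD replicate 1, where the rest of its group had 9.76 to 11.4 and 7.30 to 10.3 CPM. None of these 6 genes passed over all 16 libraries, although in the robust fit Osi6, Osi14, Osi15 and Tb did, Tb at 1.51 log2 units. Osi6 and Osi15 were kept for testing only through the high libraries, so their values are a description.

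**Figure D5:**
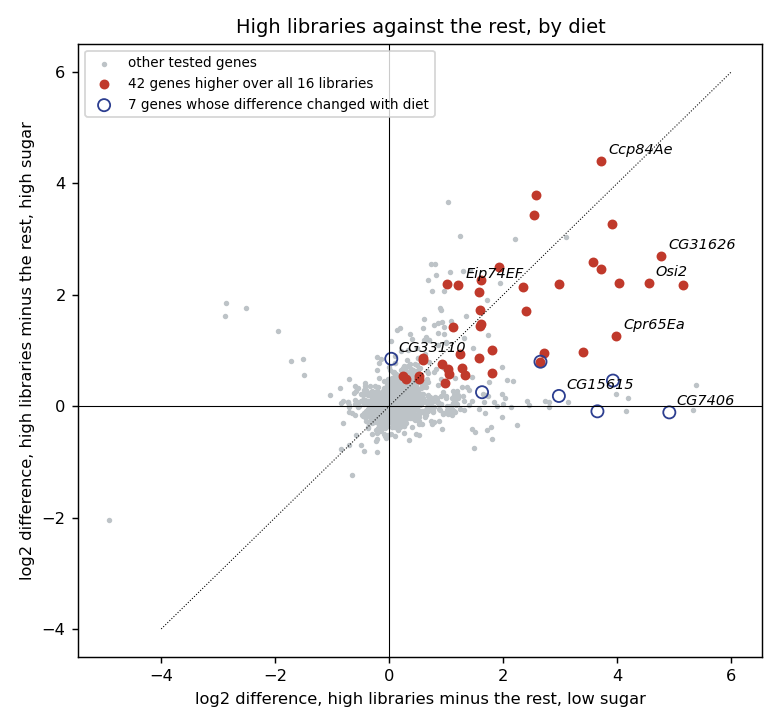
Difference between the high libraries and the rest for each tested gene on LSD (horizontal axis, log2) and on HSD (vertical axis, log2). Red points are the 42 genes higher over all 16 libraries and open circles the 7 genes whose difference changed with diet. The dotted line marks equal differences. Of the 7, 6 lie below it, among them CG15225, kept for testing only through the high LSD libraries.

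Whether the difference between high libraries and rest changed with diet was tested directly. It was larger on HSD in 1 gene (0.0102% of those tested) and smaller on HSD in 6 (0.0611%). CG33110 was the gene with the larger difference on HSD, by 0.81 ± 0.13 log2 units (SE, limma, adjusted p = 0.048). It had 14.8 and 17.1 CPM in the high HSD libraries of mutants and controls against 7.95 to 9.43 CPM in the other HSD libraries, and 20.3 and 22.7 CPM in the high LSD libraries against 16.5 to 24.7 CPM in the other LSD libraries. CG15615 had the reverse pattern, with 6.16 and 8.00 CPM in the high HSD libraries, inside the 5.04 to 9.02 CPM of the other HSD libraries, and 29.2 and 25.0 CPM in the high LSD libraries against 1.84 to 4.34 CPM in the others. Its difference fell by 2.79 ± 0.28 on HSD (SE, limma, adjusted p = 0.0015). CG7406 had 1.93 and 2.70 CPM in the high HSD libraries and 57.0 and 6.21 CPM in the high LSD libraries, against 0.086 to 0.25 CPM in the other LSD libraries, and its difference fell by 5.03 ± 0.60 on HSD. In CG15225, CG11584, CG43386 and CG2837 (snsl in BDGP6), the rest of the 6, the difference fell by 3.75, 3.46, 1.85 and 1.38 on HSD. CG15225 reached 1 CPM in fewer than 4 of the other libraries and was kept for testing only through the high LSD libraries. It had to be higher there, so its fall on HSD is a description. The counts moved with single libraries: without control LSD replicate 1 they were 9 larger and 74 smaller on HSD, without mutant LSD replicate 4 they were 2 and 30, and without control HSD replicate 4 or mutant HSD replicate 3 they were 0 and 1.

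Within 1 diet, 28 genes were higher in the high HSD libraries (0.285%) and 67 in the high LSD libraries (0.682%), with 9 genes in both, 32.1% of the HSD list and 13.4% of the LSD list. All 28 HSD genes had positive differences on LSD, with a median of 0.67 log2 units. Of the 67 LSD genes 57 were positive on HSD, with a median of 0.34. Osi2 was called in both, at 2.21 log2 units on HSD and 4.55 on LSD, as were the 3 Ccp84 genes. Osi6, Osi14, Osi15, Tb, ftz-f1, Hr46 and zye, the last a zona pellucida protein, were not called on HSD, where they differed by -0.06, 0.21, 0.38, 0.15, 0.20, -0.10 and 0.23. On LSD the same 7 were called, at 5.32, 3.98, 5.37, 4.19, 1.21, 1.15 and 1.64, and for none did the test of the change with diet pass. Osi6 and Osi15 were kept for testing only through the high libraries, so their calls are a description. Eip74EF was called on HSD, at 2.18, and differed by 1.21 on LSD (limma, adjusted p = 0.089).

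Between genotypes the high libraries could be compared in separate samples. In control larvae 29 genes were higher in the 2 high libraries (0.295%), and in mutant larvae 8 (0.0814%), with 1 lower (0.0102%). Of the 29 control genes, 26 had positive differences in mutants, with a median of 1.196 log2 units and a range of -0.07 to 3.05, while the median of all genes in mutants was 0.00. 4 genes were called in both genotypes, 13.8% of the control list and 50% of the mutant list. CG31626 differed by 2.54 in mutants and by 4.92 in controls, and Ccp84Ae by 3.05 and 5.07. Eip74EF differed by 2.05 in mutants and 1.33 in controls. The test of the change with genotype called 0 genes (limma; smallest adjusted p = 0.073), although 2332 genes had an unadjusted p under 0.05. That count of 0 moved when single libraries were left out: it was 347 higher and 343 lower without mutant LSD replicate 3, 294 and 181 without mutant LSD replicate 1, 117 and 74 without mutant LSD replicate 2, 77 and 22 without mutant HSD replicate 3, and 1 and 25 without control HSD replicate 4.

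The slope of each gene on the Twdl score within groups was also fitted in the 12 other libraries alone, an alternative chosen after the data were seen. The score is the one that set the high libraries apart, so these slopes are a description and no further support for the 42 genes. Over all 16 libraries the slope was positive and called in 189 genes (1.92%) and negative and called in 11 (0.112%). In the 12 it was positive and called in 292 genes (2.97%) and negative and called in 99 (1.01%). Of the 42 genes, 41 had positive slopes and 25 were called, 59.5% of the 42 and 8.56% of the 292. Without mutant LSD replicate 3 the 25 fell to 7. CG12971 rose by 1.65 ± 0.11 log2 units per unit of score (SE, limma, adjusted p = 1.65e-05), CG31626 by 1.24 ± 0.11, CG12164 by 1.17 ± 0.12 and Ccp84Ae by 1.27 ± 0.25. Osi2, Cyp18a1, Cpr51A, Sb and CG43386 had slopes of 0.61, 0.14, 0.20, 0.00 and 0.38 that did not pass.

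Some genes followed the score in these 12 libraries and yet did not separate the high libraries. e, which encodes the tanning enzyme Ebony, had a slope of 2.17 ± 0.23 (limma, adjusted p = 0.00038) and stood at 29.5 CPM in mutant LSD replicate 3 and 25.2 CPM in mutant HSD replicate 4. In the high libraries it had 8.04, 20.7, 8.09 and 1.41 CPM, in the order used above. y had a slope of 0.83 ± 0.06 and Cht5 one of 0.66 ± 0.08. RnrS, a subunit of the enzyme that makes DNA precursors, had a slope of -0.19 ± 0.04. Without mutant LSD replicate 3, 40 slopes were positive and called (0.407%) and 2 negative (0.0204%). Of the 42 genes 34 then had positive slopes and 7 were called, among them CG12164, CG12971, CG31626 and CG8541, and y and Cht5 still passed.

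No gene passed in 21 of the 26 lists, which cover juvenile hormone, glycolysis, fatty acid synthesis, digestive proteases, ribosome biogenesis, replication, antimicrobial peptides and the clock. At a background of 0.428% a list of this size would seldom hold a call, so the lack of calls does not show that these genes did not differ. Their medians lay between -0.34 and 0.18 log2 units. All 16 tested genes of DNA replication and mitosis had negative differences, from -0.12 to -0.005. Their median was 0.002 in mutants and -0.168 in controls. In the 12 other libraries 6 of them had called slopes, where 2.97% of all genes had positive and 1.01% negative called slopes. Without mutant LSD replicate 3, 2 negative slopes were called over all genes. Of 15 genes of ribosome biogenesis 1 was positive, and their median was -0.09, with -0.002 in mutants and -0.165 in controls. sug, a sugar-responsive transcription factor, had 129.7 and 16.8 CPM in the high mutant libraries on HSD and LSD and 141.5 and 15.9 CPM in the high control libraries. In the other libraries it had 112.9 to 131.0 CPM on HSD and 8.93 to 32.3 CPM on LSD, so the values followed the diet, and its difference was 0.12 ± 0.16. The clock gene tim differed by 0.07 ± 0.08, and Thor, a translation repressor raised when nutrients are scarce, by 0.54 ± 0.28. roX1, an RNA of the male dosage compensation complex, differed by 0.00 ± 0.28. The median of the 2 roX RNAs was 0.463 in mutants and -0.43 in controls. The part of the sex of the larvae in the result was not tested.

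None of 66 tested markers of 10 cell types passed, and the medians of these lists lay between -0.02 and 0.09 log2 units. All 7 tracheal, all 6 epidermal and all 4 fat body markers had positive differences, as did 7 of 8 for neurons and 7 of 9 for muscle. The positive markers were 4 of 6 for glia, 3 of 7 each for midgut and Malpighian tubule, 2 of 6 for hemocytes and 3 of 6 for imaginal discs. The epidermal list includes ftz-f1, also counted among the ecdysone response genes. Within genotypes the medians were 0.40 in mutants and -0.08 in controls for trachea, 0.30 and -0.01 for epidermis, and -0.27 and 0.21 for midgut. The part of such shifts in the result was not tested. The epidermal markers summed to 307.9 to 495.8 CPM in the high libraries and 295.1 to 496.0 CPM in the rest, and the tracheal markers to 1423 to 2301 CPM and 1428 to 1869 CPM. In whole larvae, more cells with a transcript and more transcript per cell cannot be told apart. Total depth did not move with the choice: counted in the smallest step of each column, the high libraries held 48.3 to 51.3 M steps (M for mega) and the rest 44.9 to 54.2 M. The labels give no age of the larvae in hours after the moult, and its part in the result was not tested.

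The first axis of variation within groups, computed without the Twdl genes, held 36.9% of the variance. Its absolute correlation with the score deviation was 0.97 over 16 libraries, a description, since both come from the same libraries. The comparisons of the study were refitted without the high libraries. With these 4 left out, 798 genes passed the interaction of genotype and diet, against 1661 (16.9%) with all 16. Of these, 731 were shared, 91.6% of the 798 and 44.0% of the 1661. The other comparisons kept most calls with fewer libraries: 4748 against 5124 (52.2%) for HSD in mutants, 6245 against 6676 (68%) for HSD in controls, 3490 against 3929 (40%) for the mutant on HSD and 3693 against 4316 (43.9%) for the mutant on LSD. With all libraries and the high state as a covariate, the interaction called 1678 genes, and the part of the smaller number of libraries in the drop was not tested.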

How the data were processed

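One table of gene values for 16 libraries was used. Per the labels' protocols, rRNA was depleted, a stranded kit made the libraries, and each was sequenced in 2 technical runs of 75 bp single-end reads. The submitters' processing notes name Trimmomatic, TopHat2 (version 2.1.0), HTSeq and limma, without role or settings. No genome build or annotation is named in the labels or headers. The deposited values are called CPM, but 9 of 16 columns sum to more than CPM values can, so they were treated as a signal of unstated scaling, on which no count test was run. The authors' deposited log2 coefficients, scores and p-values were not used.

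A gene was kept where 4 or more libraries reached 1 CPM (9837 of 9863). The 15 Twdl genes were set aside, which left 9822. log2(CPM + 0.5) was computed from the deposited values, so fold changes of low genes are understated. limma (version 3.58.1, R 4.3.3) was fitted with 1 mean per group and an indicator of the high libraries (11 residual and 3.25 prior degrees of freedom, trend). Tests were two-sided, with Benjamini-Hochberg adjustment over all 9822 genes and a threshold of 0.05. Interaction terms tested genotype and diet, and the comparisons of the study were fitted with group means alone. The rule of choice does not state a direction, and it was read as upward deviations. No library pair was a duplicate: chi-square per degree of freedom between replicates was 13.9 to 123. The test was checked on simulated data.

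The libraries, the gene lists and the marker lists were chosen with earlier results of these data known. Named genes were set by a rule: fixed hormone and sugar genes, the 12 largest differences with a mean of at least 5 CPM that held in all 4 groups, and up to 4 genes per list with the smallest adjusted p. Others were picked after their values were seen. Gene symbols are those of the table, and 9687 of the tested identifiers were found in the BDGP6 annotation and 135 were not; chromosome arms and neighbours come from there. Alternatives were other pseudocounts, filters, scalings and fits, a block on the replicate number, and leaving out each library.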

Additional observations from a re-analysis of the deposited data

Results flagged for a closer look

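In groups of 4 libraries, a library was singled out when its gap to the nearest other made up most of the range of the group (Dixon's 95% limit), a test that chance alone passes in about 1 of 20 groups. Of 208 such tests on the named genes and the depth, 52 passed. In 48 of the 52 the library singled out was the high library of its group, as the highest of the 4. The genes were partly named for being high in these libraries, so the count is a description and cannot be read against that share. In mutant HSD libraries, replicate 3 stood apart by shares of the range of 0.959 for Ccp84Ae, 0.849 for Cpr51A, 0.861 for Eip75B and 0.92 for CG43386. In mutant LSD libraries, replicate 4 stood apart by shares of 0.873 for ftz-f1, 0.835 for Hr46, 0.954 for Osi6, 0.976 for Osi14, 0.949 for Osi15, 0.954 for CG7406 and 0.94 for CG15225. In the same library the share was 0.91 for CG11584, 0.88 for CG15615, 0.913 for Tb, 0.88 for ImpE1, 0.838 for ImpE2 and 0.88 for Sb. In control HSD libraries, replicate 4 stood apart by shares of 0.932 for Ccp84Ae, 0.905 for CG4998, 0.843 for CG12971, 0.894 for Ccp84Ac, 0.874 for CG17127, 0.879 for CG8541, 0.949 for Eip74EF, 0.882 for Osi6, 0.912 for ple and 0.853 for CG33110. In control LSD libraries, replicate 1 stood apart by shares of 0.952 for Ccp84Ae, 0.926 for CG31626, 0.838 for CG4998, 0.899 for CG12164, 0.985 for Osi2, 0.908 for CG12971, 0.955 for Ccp84Ac, 0.97 for CG17127, 0.922 for Ccp84Af and 0.932 for CG8541. In the same library the share was 0.946 for Cpr65Ea, 0.939 for Cpr51A, 0.985 for Lcp65Ad, 0.883 for ftz-f1, 0.984 for Osi15, 0.925 for Cht5, 0.961 for zye, 0.937 for CG7406, 0.855 for CG15615, 0.91 for CG43386 and 0.942 for Tb. In the other 4 cases the library was one of the rest: depth was lowest in mutant HSD replicate 1 (0.881), Osi6 was highest in mutant HSD replicate 2 (0.918), and in mutant LSD replicate 1 cwo (0.894) and roX1 (0.857) were the lowest.

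For 7 genes the difference between high libraries and rest changed with diet in a direct test (limma, interaction term, adjusted p under 0.05). On the log2 scale, HSD minus LSD, it was 0.81 for CG33110, -5.03 for CG7406, -3.75 for CG15225, -3.46 for CG11584, -2.79 for CG15615, -1.85 for CG43386 and -1.38 for CG2837. CG15225 was kept for testing only through the high LSD libraries, so its value is a description.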

How the results depend on the processing

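With pseudocounts of 1 and 0.1, no filter, median-ratio scaling or the Twdl genes kept, the 42 higher and 0 lower genes changed by less than 1.5 times. Quantile normalisation gave 1 lower gene, and a filter of at least 5 CPM in at least 4 libraries left 26 higher genes, with fewer genes tested. A robust fit gave 213 higher and 76 lower, and for the change with genotype 1582 higher and 1517 lower, and for the change with diet 34 and 96. The Twdl score as a continuous covariate gave 189 and 11 over 16 libraries, 292 and 99 over the 12 others, and 2 lower without mutant LSD replicate 3, where the slopes of Cpr51A (-0.013) and Sb (-0.17) reversed. The change with diet had 0 genes with a larger difference on HSD at both pseudocounts, at the filter of 5, where 1 was smaller, and under the block on replicate number. Without the high libraries the interaction of genotype and diet called 798 genes.

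Leaving out single libraries gave 32 to 91 higher and 0 to 1 lower genes, 0 to 347 and 0 to 343 for the change with genotype, and 0 to 9 and 1 to 74 for the change with diet. The cause of these moves was not tested. With the replicate number as a replicate block, 17 genes were higher and 1 lower, and CG4998, CG12971, Cpr65Ea, Cpr30F, Cpr51A, Lcp65Ad, Cyp18a1 and CG43386 did not pass (adjusted p = 0.052 to 0.142). The labels do not say whether same-numbered libraries were handled together. Their within-group deviations had correlations of -0.32 to 0.43 in 24 pairs, with 13 over 0.1. For replicate 2 they ran from 0.117 to 0.426, and for replicate 4 from -0.317 to 0.283. A shared batch was not tested. Among the named genes, 1343 of the recomputed values kept their direction and side of the threshold, 37 newly passed it, 33 no longer did and 2 reversed. Each group holds 1 high library.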

Other observations

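Cpr65Ax1 had the most negative difference of all tested genes, -3.48 ± 1.35 log2 units, and did not pass (limma, adjusted p = 0.66). It was listed at 0.00 CPM in mutant HSD replicate 3 and control HSD replicate 4, 0.038 in mutant LSD replicate 4 and 0.020 in control LSD replicate 1. In the rest it was either near 0 or between 25.3 and 37.5 CPM: mutant HSD replicate 1, mutant LSD replicates 2 and 3, control HSD replicate 3 and control LSD replicates 2, 3 and 4 were the libraries with high values. Its near-identical copy Cpr65Ax2 had 17.4 CPM in control HSD replicate 4 and 47.7, 40.4 and 1.47 CPM in control HSD replicates 1, 2 and 3, where Cpr65Ax1 had 0.020, 0.040 and 37.5 CPM. The labels do not say how reads were shared between the copies in counting, so both values are uncertain. The gene was picked after its value was seen.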
